A study of Mus musculus with 8 samples.

Results

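The Notch pathway genes described here are 10 named members: the receptors Notch1 and Notch2, the ligands Jag1, Jag2, Dll1 and Dll4, the DNA-binding factor Rbpj, and the target genes Hes1, Hey1 and Nrarp. They were chosen by name from 31228 genes measured by sequencing of polyadenylated RNA in 8 libraries from C57BL/6 mice, and all 10 were found by symbol. The groups were extrahepatic bile duct epithelium (1 library), pancreatic duct epithelium (1 library), bile duct organoids (3 libraries) and pancreatic duct organoids (3 libraries). Organoids are hollow or solid bodies of epithelial cells grown in a gel. Ducts were dissected from mice and digested with collagenase IV, and the epithelium libraries came from this material put straight into Trizol. The organoids were grown in Matrigel for 3 to 4 passages in a medium with EGF, R-Spondin-1, Noggin and FGF10, from which Wnt3A and the kinase inhibitor Y27632 were withdrawn once luminal organoids had formed. No genotype, age, sex or number of animals is stated in the labels, and the epithelium libraries had no culture step, so that culture, its medium and the mix of cells cannot be told apart between organoid and epithelium. The series was set up to ask how alike the epithelia of these ducts are and how alike the organoids grown from them are. The libraries held between 12876470 and 20828217 reads or read pairs, as implied by the deposited values, which are FPKM (reads scaled to exon length and to library size). All FPKM values below were further scaled between libraries to a common level, and log2 differences are of log2(scaled FPKM + 1), a scale that understates changes in weakly expressed genes.

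Notch receptors are cell-surface proteins that are cut when a ligand of the Jagged or Delta-like families on a neighbouring cell binds and pulls on them. The freed inner part of the receptor enters the nucleus and joins the DNA-binding factor RBPJ and Mastermind coactivators. Together they switch on Nrarp and some, not all, genes of the Hes and Hey families. In the liver, JAG1 and NOTCH2 are best known for bile duct formation, and their loss causes Alagille syndrome, in which bile ducts are too few. In the pancreas, Notch signalling holds progenitor cells back from endocrine and acinar fates, and Hes1 stays on in ducts and centroacinar cells of the adult. In blood vessels, Dll4, Notch1, Notch4 and Hey1 work in endothelial cells, and Notch3 and Heyl work in the smooth muscle around them.

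Promoter sequence is shown for the DNA-binding factor itself, for one of its known target genes, and for a receptor and a ligand whose RNA was lower in organoids than in epithelium. Sequences are from RefSeq on GRCm38.p6, whose promoter table matched 8 of the 10 members, all but Hes1 and Hey1. Each is written 5′ to 3′ on the strand of its gene, upstream of the annotated start, and capitals mark the letters TGGGAA, the core that RBPJ is known to bind.
Rbpj, chr5:53590096-53590213, plus strand: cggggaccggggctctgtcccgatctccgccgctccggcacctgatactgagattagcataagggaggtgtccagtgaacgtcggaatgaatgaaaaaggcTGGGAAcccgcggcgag
Nrarp, chr2:25180508-25180757, plus strand: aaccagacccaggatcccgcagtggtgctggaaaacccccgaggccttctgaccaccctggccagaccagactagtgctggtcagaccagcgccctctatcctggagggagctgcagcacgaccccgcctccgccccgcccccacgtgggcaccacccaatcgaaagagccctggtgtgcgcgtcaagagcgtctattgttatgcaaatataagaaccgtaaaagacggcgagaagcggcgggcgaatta
Notch1, chr2:26503823-26504072, minus strand: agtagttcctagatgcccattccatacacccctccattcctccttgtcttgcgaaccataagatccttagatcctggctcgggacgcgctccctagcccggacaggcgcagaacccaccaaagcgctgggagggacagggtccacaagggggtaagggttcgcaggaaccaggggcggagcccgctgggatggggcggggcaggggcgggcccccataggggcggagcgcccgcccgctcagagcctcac
Dll4, chr2:119325534-119325783, plus strand: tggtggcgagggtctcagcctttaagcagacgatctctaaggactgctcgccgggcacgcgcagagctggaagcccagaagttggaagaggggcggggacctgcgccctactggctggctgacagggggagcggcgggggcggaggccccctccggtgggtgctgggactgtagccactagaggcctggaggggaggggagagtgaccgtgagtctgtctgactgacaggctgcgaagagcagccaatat
The Rbpj stretch ends 132 bases before the start because an annotated exon of another Rbpj transcript begins there. TGGGAA was searched on both strands of windows of 300 bases around each start. It was present in 25.6% of 32851 such windows, in 28.3% of 27025 genes, and in 1 of the 8 matched members, Rbpj. From the start used for the printed stretch, Rbpj held it at 149 bases upstream, as printed, and again at 65 bases upstream on the opposite strand. From another annotated start of Rbpj, it lay 205 bases upstream on the opposite strand. The longer form GTGGGAA, which contains TGGGAA, was present in 7.25% of genes and in 0 of the 8 members. These are matches of letters in a short window and say nothing about binding.

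The libraries were first checked against the tissue named in their labels with lists of cell type markers, each summed in scaled FPKM. Markers of duct epithelium (keratins, Epcam, Sox9 and others) summed to 2560 in the bile duct library, to 560.4 in the pancreatic duct library and to between 4337 and 10894 in organoids. The epithelium libraries also held markers of other cells that the organoids held at very low levels. The 8 acinar markers summed to 20032 and 41958 in the epithelia of bile and pancreatic duct against 2.29 to 8.49 in the organoids, with Cpa1 and Pnlip at 0 in all 6. The 10 endothelial markers summed to 555 and 963 against 0.869 to 1.39, with Cldn5 at 0 in all 6 organoids. The 8 smooth muscle and pericyte markers summed to 2481 and 4219 against 0.354 to 1.76, and the 7 fibroblast markers summed to 1840 and 1916 against 0.144 to 2.49. The 7 intestinal markers summed to 592 in the epithelium of the bile duct and 26.5 in that of the pancreatic duct, and to between 50.8 and 105 in organoids. Vil1, a brush border gene, made up 49.7 to 103 of that sum, Apoa4 and Lyz1 were at 0 in all 6 organoids, and no other intestinal marker exceeded 3.92 there. Leukocyte markers summed to 109 and 114 against 2.65 to 11.9, nerve and glia markers to 70.2 and 102 against 1.44 to 11.6, and proliferation markers to 65.1 and 45.6 against 156 to 313. These lists moved between epithelium and organoid together with several Notch genes, and their part in the results was not tested. In bulk RNA, fewer cells of a type and less RNA per cell cannot be told apart.

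**Figure D1:**
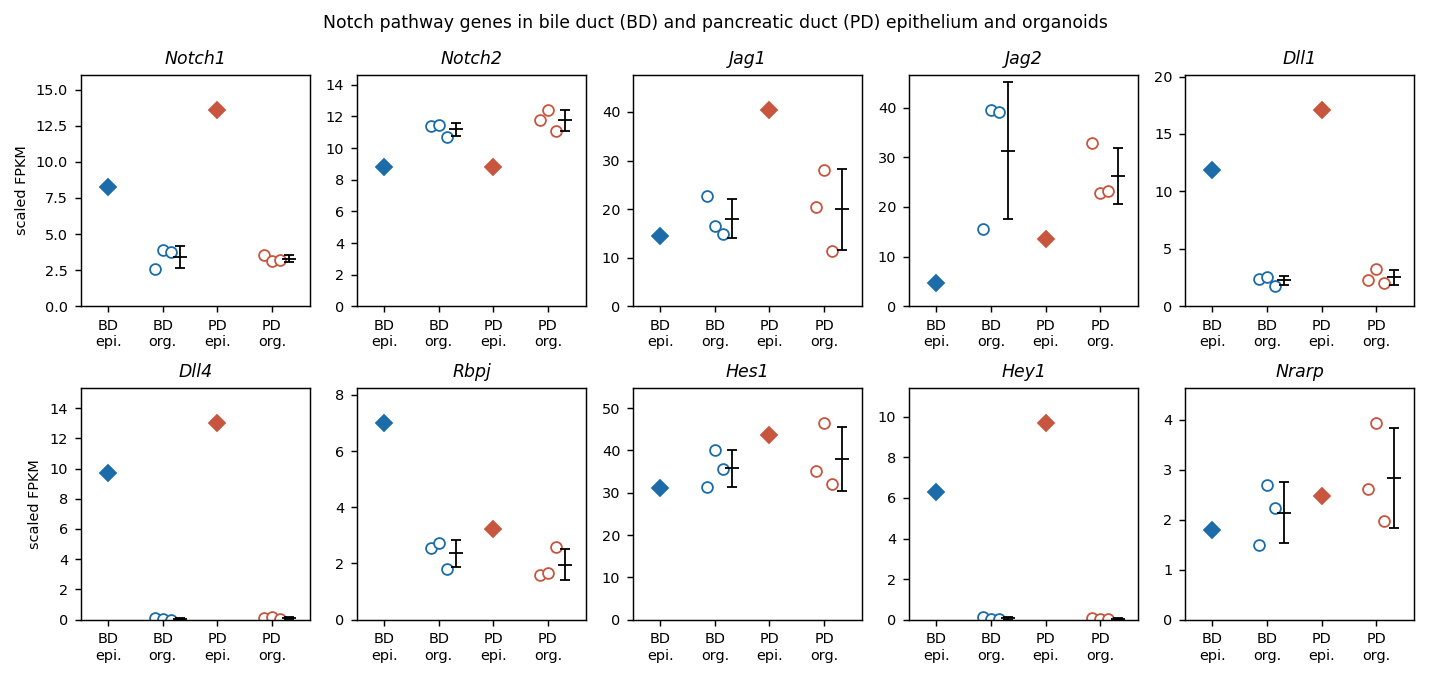
Scaled FPKM of each of the 10 genes (vertical axes, each from 0) in bile duct (BD, blue) and pancreatic duct (PD, red) libraries. Filled diamonds are the single epithelium libraries, open circles the 3 organoids of each organ, and black bars their mean ± SD. Dll4 and Hey1 lay near 0 in all 6 organoids, whereas Hes1 stayed between 31.5 and 46.4 in them.

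Between epithelium and organoid the receptors moved in opposite directions. Notch1 (ENSMUSG00000026923, GRCm38 chromosome 2, 26457903 to 26516663, minus strand) was at 8.28 scaled FPKM in the epithelium of the bile duct and 13.6 in that of the pancreatic duct. It was at 2.58, 3.92 and 3.78 in bile duct organoids 1, 2 and 3, and at 3.55, 3.14 and 3.23 in the pancreatic duct organoids. Both epithelia lay above all 6 organoids, 2.42-fold above the organoid mean in bile duct and 4.11-fold in pancreatic duct. Notch2 (ENSMUSG00000027878, chromosome 3, 98013527 to 98150361, plus strand), the receptor tied to bile duct formation, was nearly equal in the epithelia, at 8.83 for bile duct and 8.82 for pancreatic duct. Its organoid values were 11.4, 11.4 and 10.7 in bile duct and 11.8, 12.4 and 11.1 in pancreatic duct. All 6 organoids lay above both epithelia, by 1.27-fold in bile duct and 1.33-fold in pancreatic duct. Among the 10 members Notch2 varied least over the 6 organoids, with a coefficient of variation of 5.07%. The ratio of Notch2 to Notch1 within a library was 1.07 in the epithelium of the bile duct and 0.649 in that of the pancreatic duct, and it lay between 2.84 and 4.42 in organoids.

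The share of receptor RNA carried by Notch2 was higher in every organoid than in either epithelium. With FPKM summed over Notch1, Notch2, Notch3 and Notch4, Notch2 held 24.1% in the epithelium of the bile duct, 10.5% in that of the pancreatic duct and 62.7% to 73.4% in organoids. The share of Notch1 was 22.6% and 16.2% in the epithelia and 16.6% to 23.1% in the organoids, so that it overlapped. Notch3, the receptor of vascular smooth muscle, held 41.1% and 58.9% in the epithelia against 6.59% to 18.1%, and Notch4, an endothelial receptor, held 12.1% and 14.4% against 0.931% to 3.58%. The summed receptor level was 36.5 and 84.03 scaled FPKM in the epithelia of bile and pancreatic duct and 15.5 to 18.1 in organoids. These shares do not depend on scaling between libraries.

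Among the ligands, Jag2 was higher in organoids of both organs, the Delta-like genes were lower in both, and Jag1 differed in direction between the organs. Jag2 (ENSMUSG00000002799, chromosome 12, 112907819 to 112929776, minus strand) was at 4.78 scaled FPKM in the epithelium of the bile duct and 13.6 in that of the pancreatic duct. It was at 15.5, 39.5 and 39.0 in bile duct organoids 1, 2 and 3, and at 32.8, 22.8 and 23.2 in pancreatic duct organoids. Every organoid lay above both epithelia, and the organoid mean was 6.56-fold above epithelium in bile duct and 1.93-fold in pancreatic duct. Bile duct organoid 1 was the lowest of the 6. Jag1 (ENSMUSG00000027276, chromosome 2, 137081456 to 137116644, minus strand), the ligand tied to Alagille syndrome, was at 14.6 in the epithelium of the bile duct and 40.4 in that of the pancreatic duct. Its organoid values were 22.6, 16.6 and 14.9 in bile duct and 20.4, 28.01 and 11.4 in pancreatic duct. Each bile duct organoid was above its epithelium, the lowest of them only just, and each pancreatic duct organoid was below its own. The mean was 1.24-fold above epithelium in bile duct and 2.03-fold below in pancreatic duct. With scaling on genes expressed in both libraries, an alternative chosen after seeing the data, 2 of 3 bile duct organoids were above.

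Both Delta-like ligands were lower in organoids. Dll1 (ENSMUSG00000014773, chromosome 17, 15367354 to 15376872, minus strand) was at 11.9 scaled FPKM in the epithelium of the bile duct and 17.1 in that of the pancreatic duct. It was at 2.41, 2.58 and 1.79 in bile duct organoids and 2.27, 3.24 and 2.06 in pancreatic duct organoids, which put the epithelia 5.26-fold and 6.77-fold above the organoid means. The noncoding gene A930024N18Rik shares 867 of the 4219 exonic bases of Dll1 on the opposite strand, and whether counting used strand is not given in the sources used here. Dll4 (ENSMUSG00000027314, chromosome 2, 119325784 to 119335962, plus strand), the ligand best known from sprouting vessels, was at 9.68 and 13.00 in the epithelia, from 418 and 665 reads. Its organoid values were 0.130, 0.0364 and 0 in bile duct and 0.115, 0.158 and 0.0344 in pancreatic duct, from 12 reads in the 3 bile duct organoids together and 21 in the 3 pancreatic duct organoids. In bile duct organoid 3, 3 reads would have been 0.0393 FPKM, about the one-sided 95% upper limit for a count of 0. The epithelium was 184-fold above the pooled organoids in bile duct (95% counting interval 104 to 359) and 135-fold in pancreatic duct (87.5 to 219). Endothelial markers moved with Dll4, from sums of 555 and 963 in the epithelia to at most 1.39 in an organoid, and their part in the result was not tested.

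Ligand RNA in the organoids was almost all Jagged. Of the FPKM summed over Jag1, Jag2, Dll1 and Dll4, Jag1 and Jag2 together held 47.3% in the epithelium of the bile duct and 64.2% in that of the pancreatic duct. They held 95.4% ± 1.52 (SD, n = 3) in bile duct organoids and 94.6% ± 1.02 (SD, n = 3) in pancreatic duct organoids. Dll1 held 29.1% and 20.3% in the epithelia and 3.22% to 5.98% in the organoids, and Dll4 was at 23.7% and 15.5% in the epithelia and at most 0.319% in an organoid. Within the Jagged pair, the ratio of Jag2 to Jag1 was 0.328 in the epithelium of the bile duct and 0.336 in that of the pancreatic duct. It was 0.686, 2.39 and 2.61 in bile duct organoids and 1.61, 0.814 and 2.03 in pancreatic duct organoids, above both epithelia in all 6. Jag1 exceeded Jag2 in both epithelia and in 1 organoid of each organ.

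**Figure D2:**
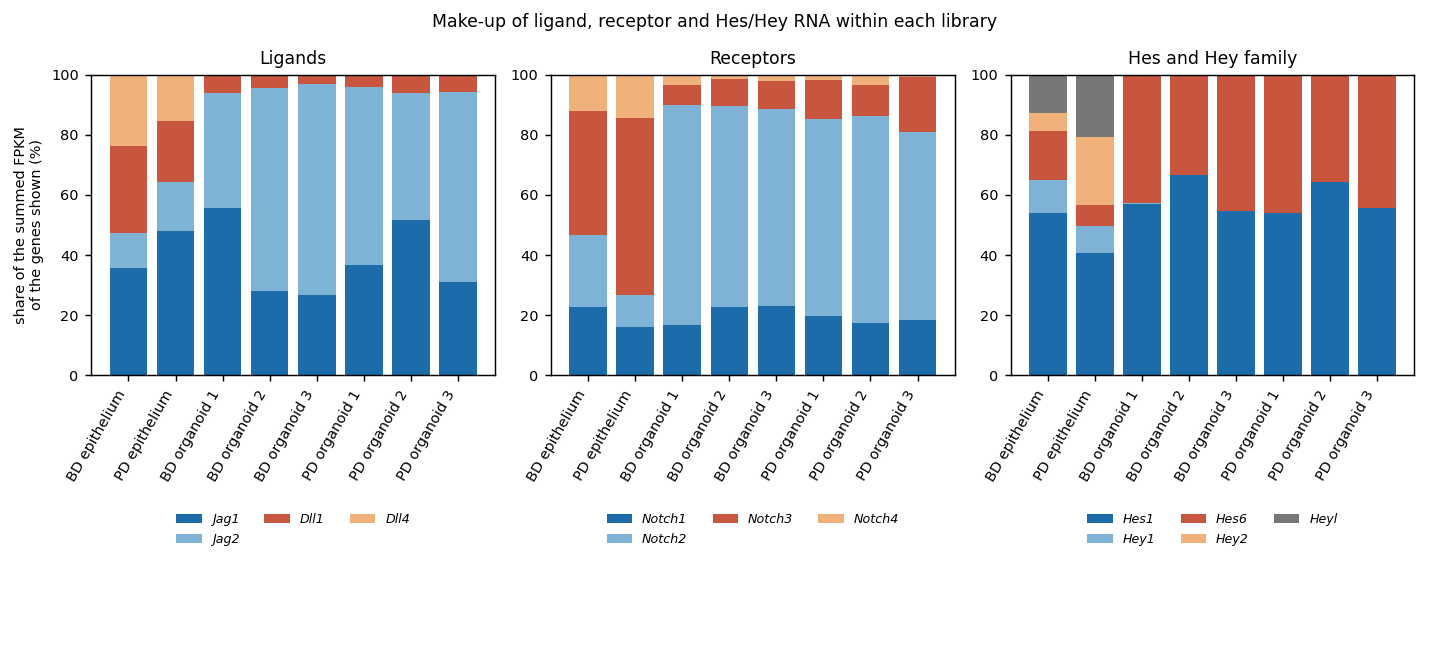
Share (%) of the summed FPKM of the genes shown that each gene held in each library, for ligands, receptors and the Hes and Hey family. Each bar is 1 library, and bars add to 100. Jag1 and Jag2 held 93.7% to 96.8% of ligand FPKM in the organoids, Notch2 held 62.7% to 73.4% of receptor FPKM, and in the organoids Hes1 and Hes6 made up nearly all of the Hes and Hey total.

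Rbpj (ENSMUSG00000039191, chromosome 5, 53466152 to 53657362, plus strand), which encodes the factor through which the cut receptors act on DNA, was lower in organoids. It was at 6.99 scaled FPKM in the epithelium of the bile duct and 3.23 in that of the pancreatic duct. Bile duct organoids were at 2.55, 2.71 and 1.82 and pancreatic duct organoids at 1.59, 1.67 and 2.60. Both epithelia lay above all 6 organoids, 2.96-fold above the mean in bile duct and 1.65-fold in pancreatic duct, although with FPKM as deposited 1 pancreatic duct organoid lay above its epithelium. The acinar markers included Rbpjl, a relative of Rbpj that works with Ptf1a in acinar cells, which was at 3.22 and 6.90 in the epithelia and at most 0.0154 in an organoid. Between the epithelia, Rbpj was higher in bile duct, whereas Rbpjl and the acinar sum (20032 and 41958) were higher in pancreatic duct. The part of acinar or other cells in the values of Rbpj was not tested.

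The target genes did not move together. Hes1 (ENSMUSG00000022528, chromosome 16, 30064384 to 30067796, plus strand), a repressor that holds progenitors back from differentiation, was at 31.2 in the epithelium of the bile duct and 43.7 in that of the pancreatic duct. It was at 31.5, 40.2 and 35.6 in bile duct organoids and 35.1, 46.4 and 32.1 in pancreatic duct organoids. The organoids overlapped the epithelia, with 3 of 3 above epithelium in bile duct and 1 of 3 in pancreatic duct (2 and 0 with scaling on genes expressed in both libraries). Hes1 ranked between the 83.7 and 91.9 percentile of genes with at least 1 FPKM in its library. Nrarp (ENSMUSG00000078202, chromosome 2, 25180758 to 25183339, plus strand), a target that dampens Notch signalling, was weak throughout, at 1.80 and 2.48 in the epithelia, 1.49, 2.70 and 2.23 in bile duct organoids and 2.62, 3.93 and 1.97 in pancreatic duct organoids. Here too the groups overlapped, with 2 of 3 organoids above epithelium in each organ, and in pancreatic duct 3 of 3 with FPKM as deposited but 1 of 3 with scaling on genes expressed in both libraries. The value of Nrarp is uncertain in origin, because 2051 of its 2582 exonic bases are shared with the antisense gene Gm38287.

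Hey1, by contrast, was near 0 in the organoids. Hey1 (ENSMUSG00000040289, chromosome 3, 8663359 to 8667256, minus strand), a repressor active in vessels and heart as well as in epithelia, was at 6.28 scaled FPKM in the epithelium of the bile duct and 9.68 in that of the pancreatic duct, from 230 and 420 reads. Its organoid values were 0.136, 0.0143 and 0.0464 in bile duct and 0.0773, 0.0339 and 0.0405 in pancreatic duct, from 12 and 9 reads over the 3 organoids of each organ. The epithelium was 101-fold above the pooled organoids in bile duct (95% counting interval 56.8 to 199) and 199-fold in pancreatic duct (104 to 438). The related genes Hey2 and Heyl, which act in vascular smooth muscle and endothelium, had the same direction. Hey2 was at 3.49 and 24.5 in the epithelia and at most 0.0241 in an organoid, and Heyl was at 7.36 and 22.2 against at most 0.0653. All 10 endothelial markers were higher in pancreatic duct than in bile duct epithelium, as Hey1, Hey2 and Heyl were. The smooth muscle sum was too, carried by Acta2 and Myh11 while Des, Rgs5 and Actg2 were lower, and so were the acinar and nerve sums. The part of these cells in the results was not tested. Of the FPKM summed over Hes1, Hes6, Hey1, Hey2 and Heyl, Hes1 held 54.0% and 40.7% in the epithelia and 53.8% to 66.5% in the organoids, while Hey1 held 10.9% and 9.02% against at most 0.247%.

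Organoids were tested against epithelia over both organs with limma, with organ as a term, so that 6 libraries stood against 2. Of all 15034 genes tested, 27.6% were higher and 30.7% lower in organoids at an adjusted p under 0.05 (4144 and 4611 genes), and with FPKM as deposited the split was 5497 higher and 3659 lower. Of the 10 members 2 were higher and 5 lower, where 58.2% of all genes were called in either direction. Of the 5 lower, 2 (Dll4 and Hey1) owe their place in the test to the epithelia, so these 2 calls carry no weight beside that share. Jag2 rose by 1.63 on the log2 scale (SE 0.45, limma adjusted p = 0.0184) and Notch2 rose by 0.34 (SE 0.0894, adjusted p = 0.0140). Dll1 fell by 2.18 (SE 0.18, limma adjusted p = 6.03e-05). Dll4 (log2 change -3.50) and Hey1 (-3.06) passed the filter on low values, at least 1 FPKM in 2 libraries, through the epithelia alone and so had to differ, and no p is read for them. Notch1 fell by 1.42 (SE 0.20, limma adjusted p = 0.000755) and Rbpj fell by 0.90 (SE 0.22, adjusted p = 0.0115). Jag1 (log2 change -0.40, SE 0.40, limma adjusted p = 0.421), Hes1 (-0.02, SE 0.17, adjusted p = 0.941) and Nrarp (0.13, SE 0.23, adjusted p = 0.651) did not pass, and the value of Hes1 turned to 0.25 with FPKM as deposited.

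Some of these calls rested on few libraries. Without bile duct epithelium, Jag2 (log2 change 0.86, limma adjusted p = 0.253), Notch2 (0.35, adjusted p = 0.0965) and Rbpj (-0.56, adjusted p = 0.167) lost their calls. Without pancreatic duct epithelium, Notch2 lost its call (0.29, limma adjusted p = 0.163), and Notch2 also lost it with scaling on genes expressed in both libraries (0.19, adjusted p = 0.105). Notch1 and Dll1 kept their calls without either epithelium, in fits where 1 epithelium remains and the organoids alone supply the spread. Both epithelia lay above or below all 6 organoids for 7 of the 10 members and for 63.2% of all genes tested. The 7 include Dll4 and Hey1, which passed the filter through the epithelia alone and so had to lie apart. The p-values measure the spread between these libraries, which may be technical, because the labels do not say that replicates came from separate animals or cultures.

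Within each organ, with 1 epithelium library, genes were counted where the organoid mean was at least 2-fold apart and all 3 organoids lay on 1 side. In bile duct 1 member was higher (Jag2, by 2.37 on the log2 scale), where 12.5% of all genes were. In bile duct 5 members were lower, where 26.3% of all genes were: Notch1 (-1.08), Dll1 (-1.99), Dll4 (-3.34), Rbpj (-1.26) and Hey1 (-2.77). In pancreatic duct 0 members were higher, where 15.2% of all genes were, and Jag2 was just inside the limit at 0.88. In pancreatic duct 5 members were lower, where 25.3% of all genes were: Notch1 (-1.76), Jag1 (-1.07), Dll1 (-2.37), Dll4 (-3.67) and Hey1 (-3.35). In both organs Dll4 and Hey1 entered this count through the epithelium alone, so their calls carry no weight beside these shares. The median log2 change of the 10 members was -0.47 in bile duct and -0.80 in pancreatic duct, beside -0.09 and -0.08 over all genes. With FPKM as deposited, Notch1 in bile duct (-0.85) and Jag1 in pancreatic duct (-0.79) were no longer 2-fold apart, which left 4 members lower in each organ, and Jag2 in pancreatic duct (1.15) was. Without bile duct organoid 1, Notch1 in bile duct (-0.94) missed the limit, and without pancreatic duct organoid 3, Jag1 in pancreatic duct (-0.73) did.

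**Figure D3:**
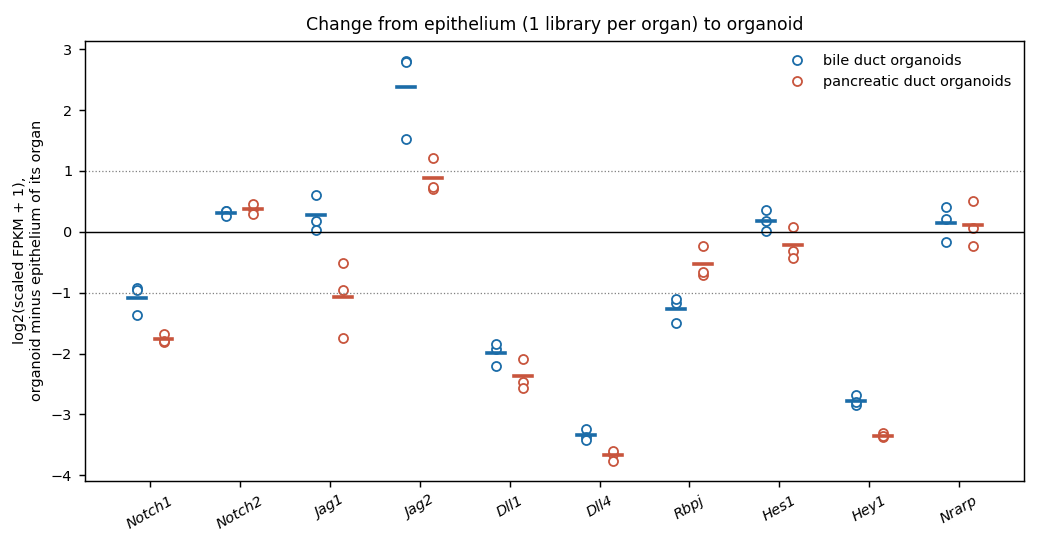
Difference in log2(scaled FPKM + 1) between each organoid and the epithelium of its organ (vertical axis) for the 10 genes. Circles are single organoids (3 per organ), thick bars their means, and dotted lines mark a 2-fold difference. Jag2 lay above 0 in all 6 organoids, Jag1 lay above 0 in bile duct and below 0 in pancreatic duct, and Notch1, Dll1, Dll4, Rbpj and Hey1 lay below 0 in all 6.

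Whether the change from epithelium to organoid differed between the organs was examined with an interaction term in limma, added after seeing the data, which assumes that the single epithelia vary as the organoids do. Of all genes 8.2% passed, and 1 of the 10 members did, which is near that share. The 1 was Hey1, whose difference of log2 changes, bile duct minus pancreatic duct, was 0.57. With Hey1 near 0 in all 6 organoids, that is in effect the difference between the single epithelia (-0.55) set against the spread of organoid values near 0, so its p is not read here. For Jag1 the difference was 1.34 (SE 0.71, limma adjusted p = 0.502), and for the other members, Dll4 left aside because it too was near 0 in the organoids, the adjusted p lay between 0.376 and 0.994.

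The epithelia were compared as single libraries with no test, and among the 10 members Jag1, Jag2 and Rbpj had the widest ratios between them. Jag1 was 2.78-fold higher in pancreatic duct than in bile duct epithelium (95% counting interval 2.58 to 2.99) and Jag2 was 2.85-fold higher (2.53 to 3.20). These 2 members were lower in bile duct by at least 2-fold, where 4.57% of all genes were, and 0 members were higher, where 9.1% of all genes were. Rbpj had the opposite direction, 2.17-fold higher in bile duct (95% counting interval 1.95 to 2.41), but its log2 difference on the scale with 1 FPKM added was 0.92. The other members differed by at most 0.65 on the log2 scale, the value of Notch1, and Notch2 differed by 0.00. The median log2 difference, bile duct minus pancreatic duct, was -0.48 over the 10 members and -0.03 over all genes. Counting intervals cover counting error only, not the spread between animals. Marker sums also differed between these libraries. The duct epithelium (2560 and 560.4), intestinal (592 and 26.5) and proliferation (65.1 and 45.6) sums were higher in bile duct. The other marker sums were higher in pancreatic duct, among them acinar (20032 and 41958) and endothelial (555 and 963). The part of these cells in the differences was not tested.

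Between the organoids of the organs, 0 of the tested members passed. Of 12093 genes tested with limma between the 3 bile duct and the 3 pancreatic duct organoids, 0.0% passed an adjusted p of 0.05, and 309 had an unadjusted p under 0.05. A voom fit on recovered reads called 1 gene. Of the 10 members, 8 could be tested, since Dll4 and Hey1 were below the filter of 1 FPKM in 3 organoids, and 0 of the 8 had an unadjusted p under 0.05. Without bile duct organoid 1, 1020 genes had, among them 1 member, Jag2 (log2 difference 0.58, limma adjusted p = 0.565). Overlap was counted for genes with at least 1 FPKM in 3 organoids, which leaves out Dll4 and Hey1. The organoid groups of the organs did not overlap for 0 of the 8 members and for 6.72% of 11986 genes. That background leaves 0 of 8 unremarkable. In log2 difference, bile duct minus pancreatic duct, the values were 0.03 for Notch1 (SE 0.16), -0.06 for Notch2 (SE 0.10), -0.07 for Jag1 (SE 0.33) and 0.16 for Jag2 (SE 0.37). They were -0.10 for Dll1 (SE 0.19), 0.20 for Rbpj (SE 0.20), -0.06 for Hes1 (SE 0.17) and -0.28 for Nrarp (SE 0.25), each with a limma adjusted p of 1.00. Among the 8 tested members the coefficient of variation over the 6 organoids was highest for Jag2 (33.9%), Nrarp (33.5%) and Jag1 (31.2%). The log2 ratio of Jag2 to Jag1 differed by 0.23 between organs (exact permutation test, two-sided, p = 0.7) and that of Notch2 to Notch1 by -0.10 (exact p = 0.6), where 0.1 was the smallest p that 3 against 3 allow.

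The other genes of the pathway were taken from a list of 65 sorted by role, of which 64 were in the table and 53 were tested in the comparison of organoids with epithelia. Of the 53, 12 rose, 18 fell and 23 did not pass, while 27.6% of all genes tested rose and 30.7% fell, shares against which the counts by role below are also to be read. Of the 18 that fell, 7 passed the filter only through the epithelia (Notch4, Mfng, Aph1c, Numbl, Dtx1, Hey2 and Heyl, each with at most 1 organoid at 1 FPKM), which favours a difference, and no p is read for them. Of the other receptors, Notch3 fell by 3.33 on the log2 scale (15.02 and 49.5 scaled FPKM in the epithelia, 1.02 to 3.19 in organoids, limma adjusted p = 5.87e-05), and Notch4 had a log2 change of -2.62. Among 5 genes for sugar transfer to the receptors, 0 rose and 2 fell: Lfng, from 22.2 and 31.3 to between 3.99 and 9.63 (limma adjusted p = 0.00125), and Mfng, at 6.75 and 12.9 in the epithelia and at most 0.0933 in an organoid. These Fringe enzymes set which ligands a receptor answers to, and the third, Rfng, did not pass (8.78 and 11.6 in the epithelia, 4.54 to 10.2 in organoids).

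Genes of ligand handling and receptor cutting moved both ways. Of 5 ubiquitin ligases that prepare ligands for uptake, Neurl1b rose from 3.75 and 4.84 to between 10.0 and 29.6 (log2 change 1.93, limma adjusted p = 0.00416), Mib2 fell by 0.59 (adjusted p = 0.0307), and Mib1 did not pass (13.2 and 15.7 in the epithelia, 14.5 to 24.8 in organoids). Neurl3 did not pass either (adjusted p = 0.569), with 41.5 and 10.6 in the epithelia of bile and pancreatic duct and 13.2 to 88.5 in organoids. Of 10 proteases and their partners, 3 rose and 3 fell. Furin, which cuts the receptor on its way to the surface, rose from 11.6 and 11.4 to between 26.1 and 46.0 (log2 change 1.43, limma adjusted p = 0.000685), and Aph1a rose by 0.53. Psen2 fell by 0.78 and Aph1b fell by 1.63 (limma adjusted p = 0.000314), and Aph1c, which entered the test through the epithelia, had a log2 change of -0.70. The Aph1 genes encode alternative scaffolds of the gamma-secretase complex, which makes the last cut in the receptor. The sheddases Adam10 and Adam17, which make the cut before it, did not pass.

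Nuclear partners were divided as well. Of 8 coactivators, 2 rose (Maml3 and Kat2a) and 2 fell, Maml2 from 7.77 and 8.19 to between 1.93 and 3.90 (limma adjusted p = 0.00124) and Kat2b by 1.10 (adjusted p = 8.88e-05). Of 11 corepressors, 5 rose, among them Ctbp1, Ctbp2, Tle4 and Rita1 by 0.35 to 0.64, and 1 fell, Tle2 by 1.45 (limma adjusted p = 0.000106). Of 8 regulators that bind or degrade receptors, 0 rose and 5 fell, beside 58.2% of all genes called in either direction: Numb, Numbl, Itch, Dtx1 and Dtx3, of which Numbl and Dtx1 entered the test through the epithelia. Dtx3 fell from 30.3 and 45.0 to between 6.38 and 20.9 (limma adjusted p = 0.00436) and Dtx1 was at 4.91 and 7.73 in the epithelia and 0.153 to 1.53 in organoids. In the Hes and Hey family, Hes6 rose from 9.42 and 7.37 to between 20.2 and 30.0 (log2 change 1.51, limma adjusted p = 0.000299), Hey2 and Heyl had the values given above, and Hes2, Hes3, Hes5 and Hes7 stayed below 1 FPKM in every library. Of the lineage factors that Hes1 is known to repress, 0 of 5 could be tested: Atoh1 was at 2.69 in bile duct epithelium and at most 0.0714 elsewhere, and Ptf1a and Neurod1 were at 0 in all 6 organoids. Between bile duct and pancreatic duct organoids, 0 of the 46 other pathway genes that could be tested passed in limma.

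**Figure D4:**
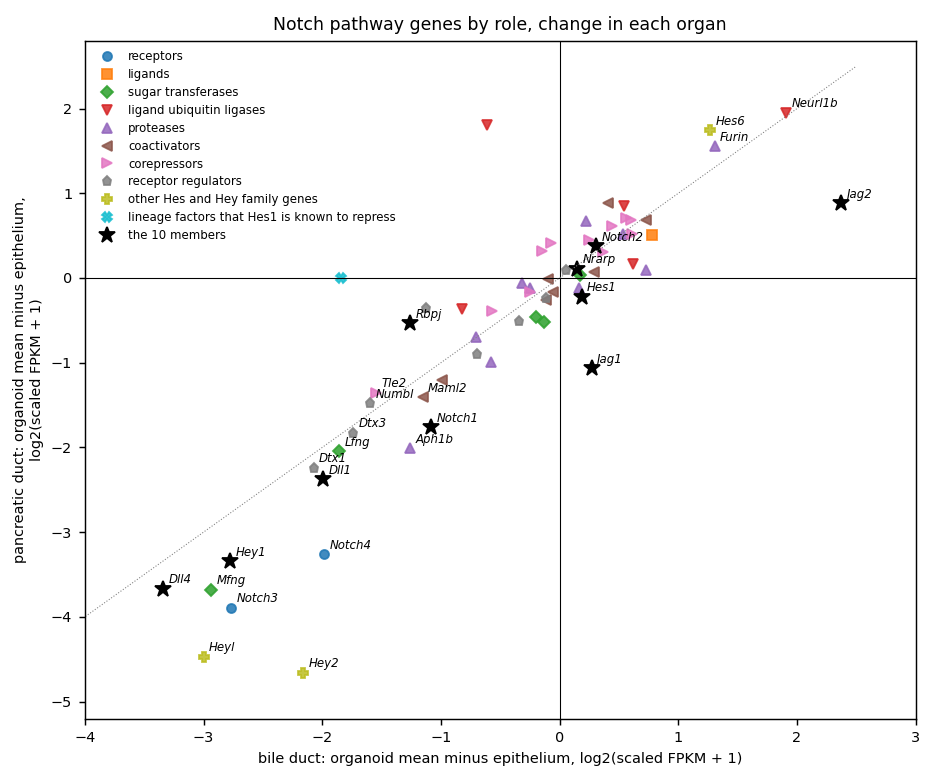
Change from epithelium to organoid mean, in log2(scaled FPKM + 1), in bile duct (horizontal axis) and pancreatic duct (vertical axis) for the 10 genes (stars) and the other pathway genes by role. The dotted line marks equal change. Neurl3 (upper left red triangle) lay at -0.61 and 1.81, with bile duct organoid 1 above its epithelium and the other 2 below, and Jag1 lay on the opposite side, at 0.27 and -1.07.

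Genes whose profile over the 8 libraries was nearest to each member were searched among 11659 protein-coding genes with a mean of at least 1 FPKM. Likeness was the root mean square distance between centred log2(scaled FPKM + 1) values, on which most genes share the step between epithelium and organoid. The nearest to Notch1 was Dbndd2 (distance 0.0637), to Notch2 Actr1b (0.0381), to Jag1 Arhgdig (0.186) and to Jag2 Srm (0.325). The nearest to Dll1 was Fam19a5 (0.0953), to Dll4 Gpr37l1 (0.0496), to Rbpj Acp5 (0.113) and to Hey1 Selp (0.0460), with Stum almost as near (0.0487). Zfp566 (0.0906) was nearest to Hes1. Nrarp had Sugp2 (0.141) and then Hes1 (0.143) nearest, the only case of a member among the 2 nearest genes of another member. The profile of Jag2 had no close match, its nearest gene lying farther off than that of any other member.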

How the data were processed

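RNA was measured in 8 libraries, and the authors deposited 1 table of FPKM values with a column per library. No header names the unit, which was read from the values: multiplied by merged exon length (GENCODE M21), 28268 of 31228 genes (90.5%) gave whole reads in all 8 libraries within 0.05 of a read. Depth and read numbers come from these steps, and intervals (95%, exact) cover counting error only. Bowtie2 2.2.3, HISAT2 2.1.0, TopHat2 and HTSeq 0.6.0 are named in the submitters' processing notes without roles. The genome build, strand setting and filters are not given in the sources used here, but gene coordinates match GENCODE M21 (GRCm38) for 28593 of the 31099 identifiers found there. 0 columns were left out.

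FPKM values were scaled by a trimmed mean of log ratios (30% of ratios, 5% of levels) on genes with at least 1 FPKM. The scaling factors lower the log2 ratio of organoid to epithelium by 0.27 (bile duct) and 0.28 (pancreatic duct) against FPKM as deposited, and the median log2(FPKM + 1) change of all genes over both organs from 0.23 to -0.01. Tests used limma 3.58.1 with a trend in R 4.3.3 on log2(scaled FPKM + 1). Adjustment was Benjamini-Hochberg over all genes, with a threshold of 0.05. The fit was tried on simulated data with equal spread for every gene, which does not show how it behaves on these data. Genes with at least 1 FPKM in 3 organoids, or in 2 of all libraries, were tested. Within an organ, at least 2-fold was required. Groups follow the labels' source, and replicate numbers the titles. All 10 members were named; other pathway genes came from a list by role and were named where defining or 2-fold apart in both organs. Some listed genes are not reported here by name. Members and lists were chosen with earlier results of these data known. Alternatives covered scaling, pseudocount (0.1), filter, replicate block, voom and left-out libraries. Python 3.11.15, pandas 2.3.3, numpy 2.4.6 and matplotlib 3.10.9 were used.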

Additional observations from a re-analysis of the deposited data

Results flagged for a closer look

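The change of Jag1 from epithelium to organoid went up in all 3 bile duct organoids and down in all 3 pancreatic duct organoids, a difference of 1.34 on the log2 scale. With limma's interaction term this difference did not pass (SE 0.71, adjusted p = 0.502), and the lowest bile duct organoid, at 14.9 scaled FPKM, lay within 1 FPKM of its epithelium at 14.6. For Hey1 the corresponding difference of log2 changes was 0.57 and passed limma's interaction test, but that p is not read. Hey1 was at most at 0.136 scaled FPKM in an organoid and at 6.28 and 9.68 in the single epithelia, so that the value is in effect a difference between 2 single libraries, with a spread taken from these organoids.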

How the results depend on the processing

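Between the organoid groups, the replicate block (the replicate number as a term) called 0 genes, as did limma without it, with 287 against 309 genes at an unadjusted p under 0.05. The labels do not say whether the numbers pair the samples. Deviations of same-numbered organoids correlated at -0.10, -0.44 and 0.48, which cannot decide this with 3 organoids per organ. voom called 1 gene, and leaving out 1 organoid gave 0 to 11 (11 without pancreatic duct organoid 3). These differences, none of which passed, changed sign with the organoid left out: Notch1 -0.0510 to 0.17, Jag1 -0.40 to 0.22, Jag2 -0.0573 to 0.58, Dll1 -0.20 to 0.0463 and Hes1 -0.17 to 0.10, and the log2 ratios Jag2 to Jag1 -0.16 to 0.85 and Notch2 to Notch1 -0.30 to 0.0159.

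For organoids against epithelia, leaving out 1 library gave 3952 to 9029 genes called, 2425 to 4264 higher and 1527 to 4765 lower. Members higher ranged over 0 to 2 and members lower over 2 to 5, the lowest without bile duct epithelium, where Dll4 and Hey1 were below the filter. Jag1 ranged from -1.09 to 0.25 and Hes1 from -0.24 to 0.16, and Hes1 was 0.25 with FPKM as deposited. With no filter 7435 genes were lower, and with scaling on genes expressed in both libraries 1 member was higher. At 10 FPKM or more, 2887 genes were 2-fold apart in bile duct (members lower: 1), 3113 in pancreatic duct and 908 between epithelia. With FPKM as deposited 1 member was higher in pancreatic duct, and with a pseudocount of 0.1, 1 was higher in the epithelium of the bile duct. The single epithelium libraries, low read numbers of Dll4 and Hey1 in organoids, and 3 organoids per organ limit these values. The cause of each change was not tested.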
